A study of Mus musculus with 3 samples.

Results

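The 10 genes described here were chosen by symbol for their place in polyamine synthesis and its control: the decarboxylase gene Odc1, the antizyme genes Oaz1, Oaz2 and Oaz3, the inhibitor genes Azin1 and Azin2, the synthesis genes Amd1, Srm and Sms, and the acetyltransferase gene Sat1. Of these, 7 had a level of their own among 19938 named genes, 2 (Oaz1 and Sms) lay only on probe sets that also name another gene, and 1 (Amd1) was on no probe set named here. The RNA came from cells labelled as spermatids from testes of wild-type BALB/c male mice, 30 days old, hybridised to 3 Affymetrix Mouse Gene 1.0 ST arrays, which carry probes across the exons of each gene. The arrays are numbered replicates of this 1 group, and no treated, mutant or control group was given, so a level was set only against a background measured on the same arrays. The labels describe minced and homogenised tubules passed through a cell strainer and name no step that enriches spermatids. Separate animals or preparations are not stated for the replicates, so the errors may be technical, and the number of arrays limits their precision.

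Polyamines (putrescine, spermidine and spermine) are small cations that bind nucleic acids and are needed by growing and differentiating cells. Ornithine decarboxylase makes putrescine from ornithine in the rate-limiting step of the pathway. Antizymes bind ornithine decarboxylase, block it and in most cases hand it to the proteasome, and antizyme inhibitors, which resemble the enzyme but lack its activity, bind antizymes and so release it. Antizyme messages are read through a ribosomal frameshift that polyamines favour. In the mouse, antizyme 3 (Oaz3) is made in haploid male germ cells and is needed for male fertility, and antizyme inhibitor 2 (Azin2, formerly Adc) is found mainly in testis and brain.

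Levels are RMA values on the log2 scale, with the SD over the 3 arrays. The background level of 7.98 was the 95th percentile of 211 vomeronasal receptor and hair keratin associated protein genes, whose median was 4.77. Calls above background came from limma, asking one-sidedly whether a gene's mean exceeded 7.98, with p-values adjusted over all named genes (Benjamini-Hochberg) and called below 0.05. By this test 7295 genes (36.6%) were above background. The median over all named genes was 7.45. Many values were exactly equal on the 3 arrays (46.0% of genes), and an SD of 0 means such a tie, not an absence of error. A gene that was not called is not shown to be absent. Because probes of different genes bind with different strength, genes are set side by side by level and by percentile, the share of named genes with a lower level, without a test between them.

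The label was checked against markers. All 7 round spermatid, all 8 elongating spermatid and all 8 spermatocyte markers were above background, with list means over the arrays from 11.48 up for round spermatids, 12.49 to 12.57 for elongating spermatids and 11.29 to 11.44 for spermatocytes. Markers of other cells were above background too, where 36.6% of all named genes were called. These were all 6 measured Leydig cell genes (list means 10.53 to 10.64) and 6 of 8 Sertoli cell genes (9.04 to 9.06). Peritubular, endothelial and stromal genes were called in 4 of 7 cases (8.08 to 8.18), and measured blood and immune genes in 4 of 5 (8.40 to 8.51). Of 7 spermatogonial markers 2 were called (7.54 to 7.56), beside the same 36.6%. Some of the listed markers were low, namely Nanos2 of spermatogonia at 6.59, Amh of Sertoli cells at 5.91, Lum of stromal cells at 5.80 and the leukocyte gene Ptprc at 6.67. Genes of several testis cell types were thus above background, and in such a mixture fewer cells of a type and less RNA per cell cannot be told apart, and the part of these other cells in the levels below was not tested.

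Oaz3, Odc1 and Azin1 stood high among all genes, Azin2 and Oaz2 were moderately above background, and Srm and Sat1 were not called. In all, 5 of the 7 genes with a level of their own were above background, beside 36.6% of all named genes. Their median level was 8.89, against 7.45 for all named genes. The plot of levels by array shows that in each of the 5 called genes every array lay above the background level, and in Srm and Sat1 every array lay below it. The count rested in part on replicate 3: without it 3 genes were called (Odc1, Oaz3 and Azin2). At the 99th percentile background of 9.16 there were also 3 (Odc1, Oaz3 and Azin1).

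**Figure D1:**
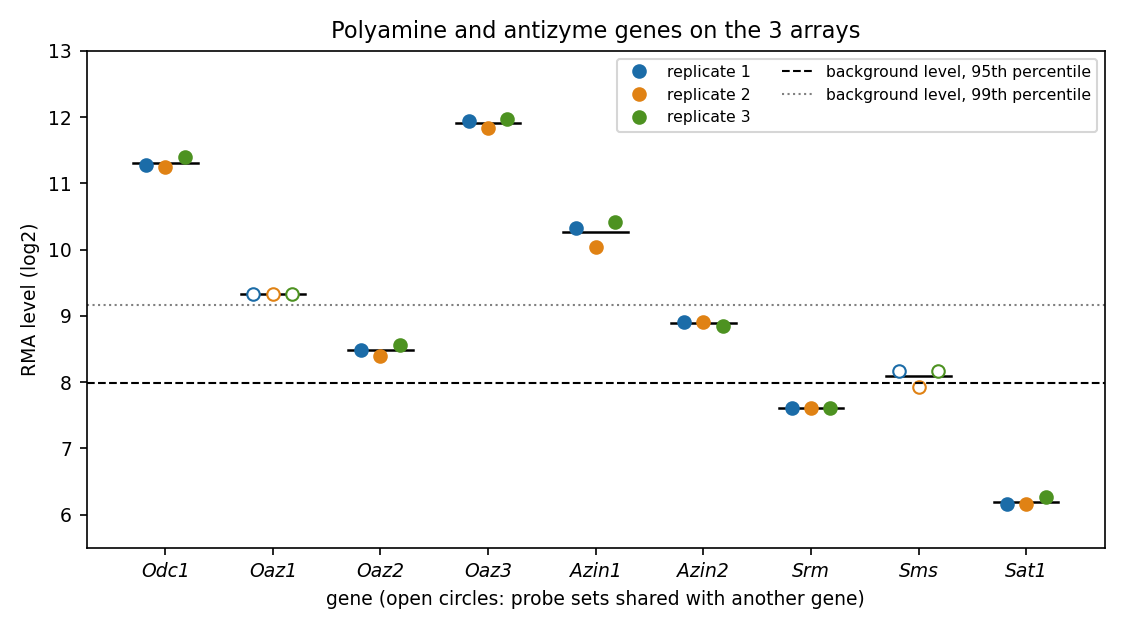
RMA level (log2) of 9 polyamine and antizyme genes on each of the 3 arrays (coloured circles), with the mean as a bar; open circles are probe sets that name a second gene, and the dashed and dotted lines are background levels at the 95th (7.98) and 99th (9.16) percentile. Oaz3 (11.91), Odc1 (11.30), Azin1 (10.26) and the median of the shared Oaz1 probe sets (9.33) lie above both lines, while Srm (7.61) and Sat1 (6.20) lie below both. Of the shared Oaz1 probe sets, the one at 9.10 is itself below the dotted line. Both lines come from genes with probe sets of their own.

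Odc1, on chromosome 12, was at 11.27, 11.24 and 11.40 on replicates 1, 2 and 3. The mean of 11.30 ± 0.09 (n = 3) exceeded the background level by 3.32 (adjusted p = 0.000157, limma). It ranked 612 among the named genes, at the 96.9th percentile. The array holds 2 probe sets that name only Odc1. They gave 11.43 ± 0.13 and 11.18 ± 0.05, so both were well above background and they differed from each other by little beside the distance to it. Which part of the gene each probe set covers was not read here.

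The RefSeq promoter window of Odc1 is shown because Odc1 had the highest measured level among the 6 members with an entry in the promoter table (Amd1, Oaz1, Oaz2, Odc1, Sat1 and Sms; Oaz3, Azin1, Azin2 and Srm have none). It covers 250 bases before and 50 after the annotated start, on assembly GRCm38.p6, chr12:17544623-17544922, plus strand, and capitals mark matches to GGGCGG or its reverse complement CCGCCC (the GC box bound by Sp1) and to TGACG or CGTCA (the shared part of cyclic AMP response elements).
Odc1: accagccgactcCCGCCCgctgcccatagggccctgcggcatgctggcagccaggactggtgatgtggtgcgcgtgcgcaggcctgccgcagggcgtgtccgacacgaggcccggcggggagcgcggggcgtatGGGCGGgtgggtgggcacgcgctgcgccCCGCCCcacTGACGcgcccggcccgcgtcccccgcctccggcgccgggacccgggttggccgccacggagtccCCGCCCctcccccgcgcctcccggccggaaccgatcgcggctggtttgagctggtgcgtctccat
The window held 4 GC boxes and 1 match to TGACG, a GC content of 78.0% and 42 CpG dinucleotides. Over 32851 promoter windows of this length the median GC content was 52.7% and the median CpG number was 7, and 98.1% had a lower GC content than Odc1. A GC box was in 35.7% of all windows and the shorter response element motif in 20.8%. The searched CCAAT box (CCAAT or ATTGG, in 37.4% of windows), TATA box (TATAAA or TTTATA, 13.6%) and full response element (TGACGTCA, which contains TGACG, 1.8%) had no match in it. These matches describe the letters and are no evidence of binding.

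Among the antizymes, the germ cell gene Oaz3 was near the top of all genes and the general genes Oaz1 and Oaz2 were lower. The levels of Oaz3 and Oaz2 each rest on 1 probe set. Oaz3, on chromosome 3, was at 11.94, 11.84 and 11.97 on replicates 1, 2 and 3, with a mean of 11.91 ± 0.06 (n = 3). It lay 3.93 above background (adjusted p = 6.37e-05, limma) and ranked 186 among the named genes. Its percentile was 99.07 by the mean and at most 99.1 on a single array. No other member had a higher level or rank.

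Oaz2, an antizyme of many tissues, is on chromosome 9. It was at 8.49, 8.39 and 8.56 on the 3 arrays, with a mean of 8.48 ± 0.09 (n = 3). This was 0.50 above background (adjusted p = 0.00839, limma), at the 70.1st percentile. The margin was small, and the call did not hold without replicate 1 (adjusted p = 0.0956, limma) or without replicate 3 (adjusted p = 0.0851, limma), nor with probe sets of several genes added (0.15 above background, adjusted p = 0.112, limma), with a range from 0.00043 to 1 over its settings. Its distance from the 99th percentile background was -0.68.

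Oaz1, the most widely expressed antizyme gene, is on chromosome 10 and has a pseudogene copy, Oaz1-ps, on another chromosome. Both of its probe sets name Oaz1-ps as well, so the copies could not be separated. They gave 9.10 and 9.56, with almost the same value on every array, and their median was 9.33 on each. With probe sets of several genes included, the joint level was 1.01 above the background of 8.33 that they give (adjusted p = 1.09e-08, limma), and 1.35 above the unchanged level of 7.98, a setting chosen after seeing the data (adjusted p = 4.56e-09, limma), at the 80.1st percentile of the genes in that table. The near tie between arrays makes this p very small, and the level is the joint level of both copies.

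The antizyme inhibitors had the opposite arrangement: the general gene Azin1 had the higher percentile and the gene of testis and brain, Azin2, the lower. Each of the 2 rests on 1 probe set, so this order is that of single probe sets. Azin1, on chromosome 15, was at 10.33, 10.04 and 10.42 on replicates 1, 2 and 3, with a mean of 10.26 ± 0.20 (n = 3). The mean was 2.28 above background (adjusted p = 0.0018, limma) and at the 90.3rd percentile. Azin1 was the most variable member: its SD was above the 95th percentile of 0.15 among genes above background. All arrays were far above the background level, yet without replicate 3 the adjusted p was 0.0503 (limma), with an excess of 2.20, and the range over its settings was 0.000469 to 0.0503.

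Azin2, on chromosome 4, was at 8.91 on replicates 1 and 2 and at 8.84 on replicate 3. The mean of 8.89 ± 0.04 (n = 3) was 0.91 above background (adjusted p = 0.000525, limma), at the 75.6th percentile. Every array was above the 95th percentile background and below the stricter level of 9.16. The call held without each replicate in turn, at adjusted p of 0.0194 and 0.0306 (limma) without replicates 1 and 2. Without replicate 3 the adjusted p was 2.6e-17 (limma). That value comes from the tie between replicates 1 and 2 and does not measure the strength of the call.

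**Figure D2:**
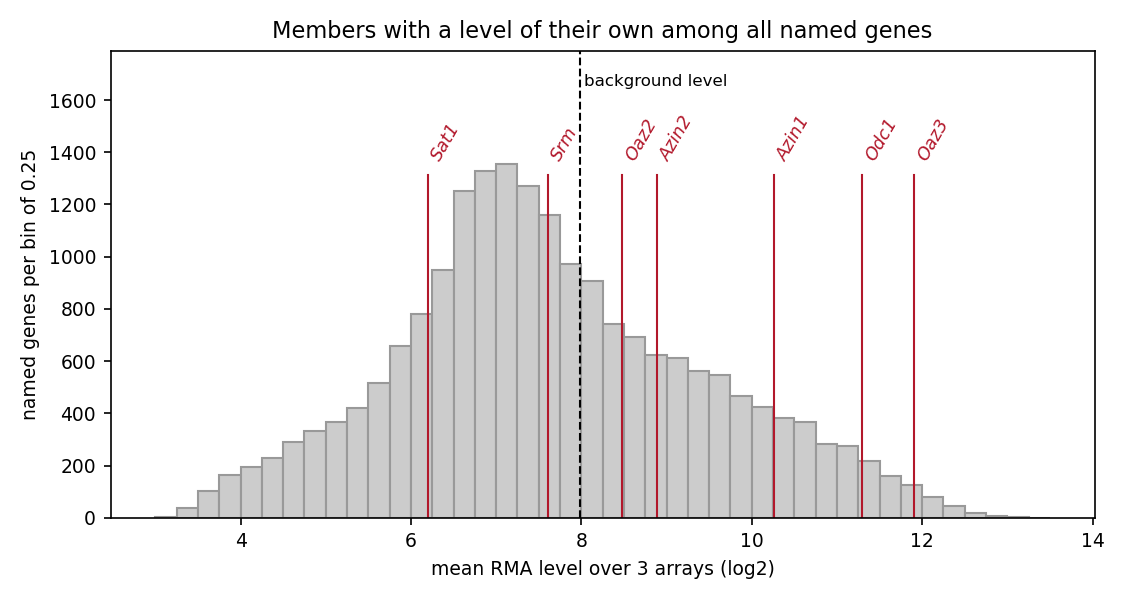
Distribution of the mean RMA level (log2, x axis) of 19938 named genes in bins of 0.25 (grey, genes per bin on the y axis), with the 7 members that have their own level as red lines and the background level of 7.98 dashed. Oaz3, Odc1 and Azin1 fall in the upper tail, Oaz2 and Azin2 just right of the background level, and Srm and Sat1 left of it.

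The synthases that lengthen putrescine were near the background level. Srm, spermidine synthase, which makes spermidine from putrescine, is on chromosome 4 and had the same value, 7.61, on all 3 arrays. Its distance from background was -0.37 (adjusted p = 1, limma) and it lay at the 54.1st percentile, close to the middle of all genes. Its call depended on the background chosen: it lay 0.43 above the olfactory receptor background of 7.18 (adjusted p = 4.75e-10, limma, range 1.6e-10 to 1). The small p-values come from the tie between arrays and do not measure the strength of the call. Sms, the X-linked spermine synthase gene that makes spermine from spermidine, has 2 probe sets, both of which also name Gm8234. Their joint level was 8.17, 7.92 and 8.17 on replicates 1, 2 and 3, above the background level on 2 arrays and below it on the other. The mean of 8.09 ± 0.14 (n = 3) was 0.10 above the background level of 7.98, a setting chosen after seeing the data, and was not called (adjusted p = 0.393, limma). Against the level of 8.33 that probe sets of several genes give, its distance was -0.24 (adjusted p = 1, limma). Amd1, which encodes S-adenosylmethionine decarboxylase, the source of the aminopropyl groups, was not analysed here.

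Sat1, the acetyltransferase that marks spermidine and spermine for export or oxidation, was the lowest member. This X-linked gene was at 6.16, 6.16 and 6.26 on the 3 arrays, with a mean of 6.20 ± 0.06 (n = 3). Its distance from background was -1.79 (adjusted p = 1, limma) and it lay at the 19.8th percentile. It also lay below the olfactory receptor background of 7.18 and the vomeronasal receptor background of 6.92, and was called under no setting.

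Satl1, an X-linked gene named for its likeness to Sat1, was among the highest of the other polyamine pathway genes. It was at 10.79, 10.68 and 10.83 on replicates 1, 2 and 3. The mean of 10.77 ± 0.07 (n = 3) was 2.78 above background (adjusted p = 0.000164, limma), at the 94.0th percentile. All arrays of Satl1 were far above background and all of Sat1 below it, and the autosomal relative Sat2, at 7.06 on every array, was not called either. The RefSeq promoter windows of both X-linked genes are shown to set a called gene beside an uncalled relative, with capitals marking GC boxes as above (GRCm38.p6, minus strand, chrX:155216400-155216699 for Sat1 and chrX:112406730-112407029 for Satl1).
Satl1: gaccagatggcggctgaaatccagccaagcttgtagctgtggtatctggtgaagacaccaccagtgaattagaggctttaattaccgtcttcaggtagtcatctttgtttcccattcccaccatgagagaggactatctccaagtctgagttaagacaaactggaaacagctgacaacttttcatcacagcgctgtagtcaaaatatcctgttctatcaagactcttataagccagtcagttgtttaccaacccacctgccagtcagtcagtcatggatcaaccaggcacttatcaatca
Sat1: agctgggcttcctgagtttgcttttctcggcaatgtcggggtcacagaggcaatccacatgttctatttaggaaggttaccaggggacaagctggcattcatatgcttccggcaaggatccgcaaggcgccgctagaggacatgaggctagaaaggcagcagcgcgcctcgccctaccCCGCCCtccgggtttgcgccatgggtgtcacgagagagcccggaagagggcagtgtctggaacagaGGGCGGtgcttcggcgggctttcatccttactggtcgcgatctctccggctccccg
The Satl1 window had a GC content of 45.0% and 3 CpG dinucleotides, lower in GC than most windows (22.0% were lower still). The Sat1 window had 60.3% and 21, and 71.4% of windows had a lower GC content. Sat1 held 2 GC boxes and Satl1 none, and neither held any of the other searched motifs.

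In the rest of the pathway, levels were mostly near or below background. Of 40 further genes chosen for their role, 34 had a level and 12 of these were above background, with a median of 7.39, against 36.6% called and a median of 7.45 over all named genes. The share called was thus close to that of all genes. The plot of pathway genes by role shows the called genes spread over every role.

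**Figure D3:**
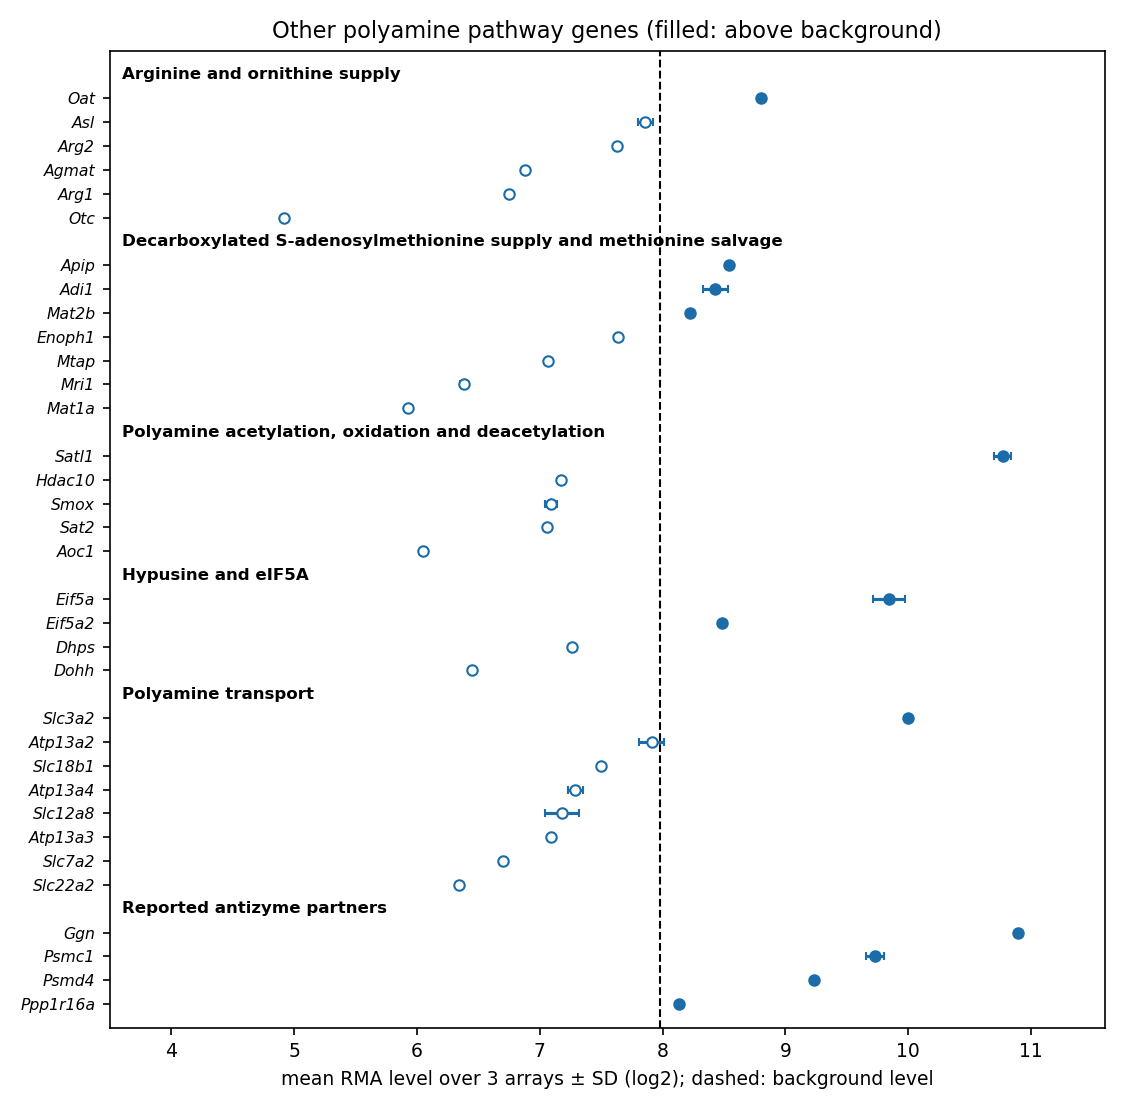
Mean RMA level (log2, x axis) ± SD over 3 arrays of 34 other polyamine pathway genes, grouped by role, with the background level of 7.98 dashed and genes above background filled. Ggn (10.89) and Satl1 (10.77) are the highest, and Otc (4.92) is the lowest.

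Among genes that supply arginine and ornithine, 1 of 6 was above background, beside 36.6% of all named genes. This was Oat, ornithine aminotransferase, at 8.81, 8.80 and 8.81 (adjusted p = 5.51e-06, limma), a near tie that makes this p small. The arginase genes Arg1 and Arg2, whose enzymes release ornithine from arginine, were at 6.75 and 7.63 and were not called. Otc, the urea cycle enzyme of liver, was lowest at 4.92 ± 0.02. Ass1 lay on probe sets that also name Gm5424, with a joint level of 9.52, and stood outside this count.

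Of the genes around S-adenosylmethionine and methionine salvage, 3 of 7 were above background, beside 36.6% of all named genes. Apip, a salvage dehydratase, was at 8.53, 8.53 and 8.55, Adi1, a salvage dioxygenase, at 8.53, 8.32 and 8.44, and Mat2b, the regulatory subunit of methionine adenosyltransferase, at 8.22 on all arrays. All of these margins were small, and Adi1 (adjusted p = 0.0146, limma) was not called when any 1 array was left out (0.0603 to 0.177). Mtap, which splits the methylthioadenosine left over by both synthases, was at 7.07 and not called, and the liver gene Mat1a was at 5.93.

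Acetylation and oxidation genes other than Satl1 were not called. The spermine oxidase gene Smox was at 7.09 ± 0.05, Hdac10, which removes acetyl groups from spermidine, at 7.17 ± 0.01, and the diamine oxidase gene Aoc1 at 6.05. In the eIF5A branch, where spermidine is used to make the amino acid hypusine, 2 of 4 genes were called, beside 36.6% of all named genes. Eif5a itself was at 9.85, 9.71 and 9.97 (adjusted p = 0.00116, limma), and Eif5a2, its close relative, at 8.48 on all arrays. The hypusine-forming enzyme genes Dhps at 7.26 and Dohh at 6.45 were not called. The calls of this branch depended on the background: Dhps was called 0.08 above the olfactory receptor level. Eif5a2 was not called at the 99th percentile level, at a distance of -0.68.

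Of 8 measured transport genes 1 was called, beside 36.6% of all named genes. This was Slc3a2, the heavy chain of amino acid transporters, tied on all arrays 2.01 above background. Atp13a2, a lysosomal polyamine exporter, was at 7.93, 8.0 and 7.81 and straddled the background level. Atp13a3, a related polyamine transporter, had 2 probe sets that disagreed, at 4.52 ± 0.04 and 9.66, so their median of 7.09 rests on values far below and far above the background level. With the highest probe set per gene it was called, 1.68 above background (adjusted p = 5.92e-11, limma, range 5.92e-11 to 1 over its settings). That probe set was tied on all arrays, which makes this p very small.

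All 4 genes chosen as reported antizyme partners or as proteasome genes were above background, beside 36.6% of all named genes. Ggn, gametogenetin, a testis protein reported to bind antizyme 3, was at 10.89 on all arrays (94.8th percentile). Ppp1r16a, a phosphatase regulatory subunit also reported to bind antizyme 3, was at 8.12, 8.13 and 8.12, only 0.14 above background (adjusted p = 0.000178, limma). The near tie between arrays makes this p small. Its call was lost at the 99th percentile background, at a distance of -1.04. The proteasome genes Psmd4 and Psmc1 were at 9.23 and at 9.73 ± 0.07. The germ cell partner Ggn and Oaz3 thus both lay in the upper tail of all genes, which describes their levels and not an interaction.

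For 4 members the arrays differed in the same way as for most called genes with 3 different values. Odc1, Oaz2, Oaz3 and Azin1 were each lowest on replicate 2 and highest on replicate 3. Among 2208 genes above background with 3 different values, 86.7% were lowest on replicate 2 and 85.5% highest on replicate 3. Replicate 3 exceeded replicate 2 by 0.12 for Oaz3, 0.16 for Odc1, 0.18 for Oaz2 and 0.38 for Azin1, against a median of 0.15 over those genes (5th to 95th percentile -0.10 to 0.40). Each of the members lay within that range, Azin1 near its upper end. Azin2 was lowest on replicate 3 and Sat1 highest there, with ties on the other arrays. The list means of spermatocyte, elongating spermatid and blood and immune markers followed the order of the 4 genes, at 11.29, 12.49 and 8.40 on replicate 2 and 11.44, 12.57 and 8.51 on replicate 3. Round spermatid (11.48 on replicates 1 and 2) and Sertoli markers (9.04 to 9.06) hardly moved, and Leydig markers had their highest mean, 10.64, on replicate 1. Their part in the order of the members was not tested.

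**Figure D4:**
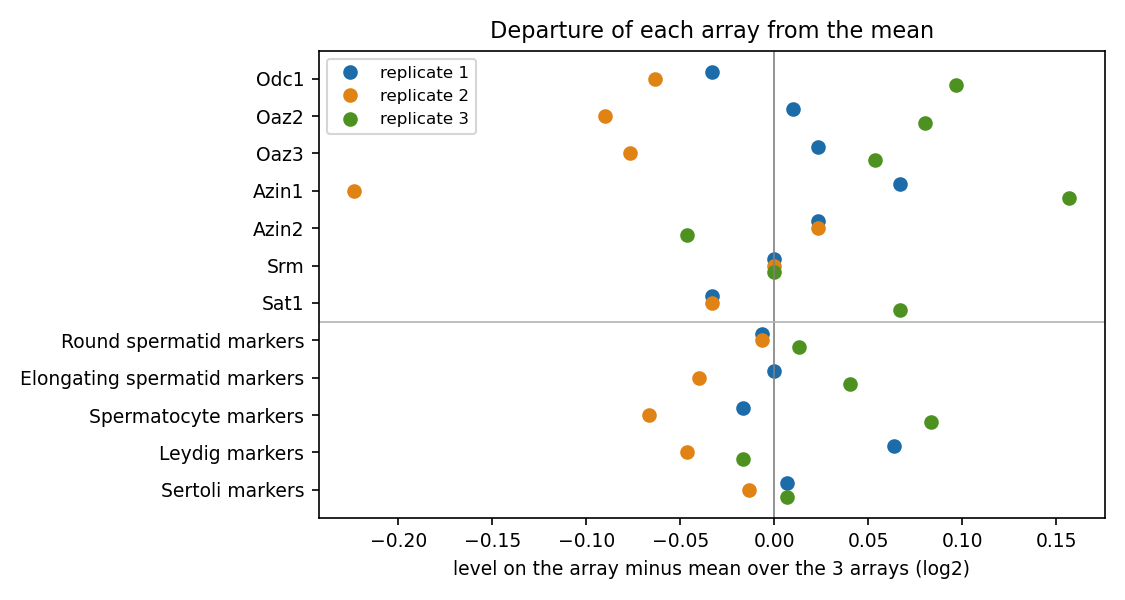
Level on each array minus the mean over the 3 arrays (log2, x axis) for 7 members (above the grey line) and for the mean of 5 marker lists (below it), coloured by replicate. Replicate 2 is lowest and replicate 3 highest for Odc1, Oaz2, Oaz3 and Azin1 and for the elongating spermatid and spermatocyte markers, while Srm is tied on all arrays.

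By position some members share a chromosome: Azin2 and Srm lie on 4, Oaz1 and Amd1 on 10, and Sms and Sat1 on X. The others lie on chromosomes 3, 9, 12 and 15. The nearest measured genes on either side of each member were called in 8 of 20 cases, beside 36.6% of all named genes. Oaz3 lies between Tdrkh, a Tudor-domain gene of the piRNA pathway, at 9.56, 9.49 and 9.62, and Mrpl9, a mitochondrial ribosomal protein gene, at 7.97, 7.90 and 7.98. Tdrkh was above background (adjusted p = 0.000372, limma) and Mrpl9 was not, with a mean of 7.95 ± 0.04 (adjusted p = 1, limma). In the reference annotation Tdrkh overlaps Oaz3. The strands of the genes and the place of their probes in the overlap were not read here, and any effect on the levels was not tested. Oaz3 was above both on each array.

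Azin2 lies beside Rnf19b, a ubiquitin ligase gene at 11.26 on all arrays, and Trim62 at 7.38, which was not called. Sat1 lies between Cldn34b2 at 4.83, which was not called, and Acot9, a mitochondrial thioesterase gene at 10.03, 9.96 and 9.96, which was. Odc1 stood between genes that were not called, Nol10 at 7.91 and Hpcal1 at 7.52 ± 0.03. Srm lay between Exosc10 of the RNA exosome at 10.22 ± 0.06, which was called, and Masp2 at 7.25, which was not. Azin1 lay between G930009F23Rik at 4.92 ± 0.10, which was not called, and the proton pump gene Atp6v1c1 at 10.38 ± 0.05, which was, and no test was made of likeness between neighbours.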

How the data were processed

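RNA from 3 samples of 1 group was measured on Affymetrix Mouse Gene 1.0 ST arrays. The deposited values are log2 probe set levels: per the series' design text, the authors used RMA and Affymetrix Power Tools with annotation based on mm9 (version: not given in the sources used here). There were 35556 probe sets with column medians of 7.17, 7.20 and 7.17. No scanner files were used here.

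The platform annotation named 1 gene for 21789 probe sets, several for 1621 and none for 12146. Symbols were updated by Entrez identifier to the GRCm38.p6 gene table (21698 matched, 91 kept). Each gene was given the median of the probe sets naming it alone, which gave 19938 genes, 999 of them with more than 1 probe set. Background came from 167 vomeronasal receptor and 44 Krtap genes. limma 3.58.1 in R 4.3.3 fitted an intercept model over all genes. Promoter sequences are RefSeq's, from GRCm38.p6, and 6 of 10 members matched.

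Alternatives were other backgrounds, other ways of joining probe sets, a call on every array, and leaving out each replicate. The members, lists and rules were chosen with earlier results of these data known. Genes were named by a rule: all members, pathway genes of a list chosen for role, their nearest measured neighbours, and summaries of markers.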

Additional observations from a re-analysis of the deposited data

How the results depend on the processing

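The background level decided most changes. Genes above background numbered 3847 at the 99th percentile, 10958 with olfactory receptor genes and 12359 with vomeronasal receptor genes alone, against 7295, and 6661 to 7090 when 1 replicate was left out. Members called numbered 3 at the 99th percentile, 6 with either receptor background, and 3 to 5 when 1 replicate was left out. Other pathway genes called numbered 6 at the 99th percentile, 18 with olfactory and 24 with vomeronasal receptors, against 12, and 11 in each fit without 1 replicate. With the highest probe set Odc1 was at 11.43, and the levels of members without 1 replicate ranged from 11.25 to 11.33 for Odc1, 8.44 to 8.53 for Oaz2, 11.89 to 11.95 for Oaz3, 10.18 to 10.37 for Azin1, 8.88 to 8.91 for Azin2 and 6.16 to 6.21 for Sat1, with Srm at 7.61 throughout.

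Distances from background changed sign together with the call as follows. At the 99th percentile they were -0.68 for Oaz2, -0.27 for Azin2, -0.36 for Oat, -0.94 for Mat2b, -0.63 for Apip, -0.73 for Adi1, -0.68 for Eif5a2 and -1.04 for Ppp1r16a. With olfactory receptors they were 0.43 for Srm, 0.44 for Arg2, 0.68 for Asl, 0.46 for Enoph1, 0.08 for Dhps, 0.73 for Atp13a2 and 0.32 for Slc18b1. With vomeronasal receptors alone they were 0.70 for Srm, 0.71 for Arg2, 0.95 for Asl, 0.15 for Mtap, 0.72 for Enoph1, 0.15 for Sat2, 0.18 for Smox, 0.25 for Hdac10, 0.34 for Dhps, 0.99 for Atp13a2, 0.17 for Atp13a3, 0.37 for Atp13a4 and 0.58 for Slc18b1. With the highest probe set the distance was 1.68 for Atp13a3, and with probe sets of several genes added, which raised the background level to 8.33, the distances were -0.10 for Mat2b and -0.20 for Ppp1r16a. In that last setting Oaz2 (0.15) and Adi1 (0.10) kept their sign and were not called. Without any call, the distance also turned for Atp13a4 with olfactory receptors (0.11) and for Slc12a8 with vomeronasal receptors (0.26). Adding those probe sets without moving the background, an alternative chosen after seeing the data, kept the call of all 7 members and 34 pathway genes. Odc1 and Oaz3 were called, and Sat1 was not, under every setting run. No paired analysis was possible because there is only 1 group. Without scanner files, signal over each array's own background was not used here, which limits what can be said of genes near the level.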
